A study of Homo sapiens with 1 sample.

Results

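Chromatin accessibility was examined at 10 genes of lipid droplets and lipid storage in the cell line 786-O, which was derived from a human clear cell renal cell carcinoma (ccRCC). The genes were the 5 perilipins PLIN1, PLIN2, PLIN3, PLIN4 and PLIN5, the droplet protein HILPDA, the lipid synthesis enzymes FASN, SCD and DGAT2, and CPT1A of fatty acid oxidation. They are 10 of the 20033 protein-coding genes of the annotation used (GENCODE release 44). A peak was assigned to a gene when its summit lay inside the gene record or within 50 kb of either end, and 74 of the 88615 peaks on the primary chromosomes of hg38 met this rule. The measurement was ATAC-seq, which marks open DNA by letting Tn5 transposase cut it and attach adapters. The cells carried an empty vector and came from a study of the chromatin remodeling factor DPF3. There was 1 library with no replicate, and the DPF3a-overexpressing cells of that study are not analysed here, so no groups were compared and no p-values are given. Transcript levels were not analysed here.

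Clear cell tumours owe their pale cytoplasm to stored lipid and glycogen, which are washed out when tissue sections are prepared. Neutral lipid is kept in droplets, where triglycerides and cholesteryl esters are wrapped in a single layer of phospholipid coated with perilipins. Most ccRCC lose VHL, the ubiquitin ligase that marks hypoxia-inducible factor (HIF) for degradation, and 786-O cells lack VHL and make HIF-2α without HIF-1α. HILPDA and PLIN2 are known HIF target genes in this disease, PLIN2 and PLIN3 are made in most tissues, PLIN1 is the perilipin of fat cells, PLIN4 is made mainly in fat and muscle, and PLIN5 is the perilipin of heart, muscle and other tissues that burn fat.

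Of the peaks that the results turn on, 8 are given here by the hg38 sequence around their summits, taken from the reference genome, since they include the strongest promoter, weaker ones and the strongest site outside promoters. Each runs 5′ to 3′ on the strand of its gene, and capitals mark any match to the 8 motifs searched, which are spelled out with the motif results. The PLIN3 stretch is shorter because transcribed untranslated sequence was left out.
HILPDA promoter, chr7:128455698-128455798, plus strand: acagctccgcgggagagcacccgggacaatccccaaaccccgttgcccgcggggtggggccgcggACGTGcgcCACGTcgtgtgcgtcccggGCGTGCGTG
PLIN2 promoter, chr9:19127498-19127598, minus strand: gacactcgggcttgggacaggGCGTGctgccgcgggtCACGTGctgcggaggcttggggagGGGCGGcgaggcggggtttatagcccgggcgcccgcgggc
PLIN3 promoter, chr19:4867695-4867780, minus strand: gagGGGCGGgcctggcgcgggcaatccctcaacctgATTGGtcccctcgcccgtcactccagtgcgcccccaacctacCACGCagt
PLIN5 promoter, chr19:4535226-4535326, minus strand: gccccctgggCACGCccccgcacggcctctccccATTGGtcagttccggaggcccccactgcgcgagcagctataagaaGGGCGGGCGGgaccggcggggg
FASN promoter, chr17:82098658-82098758, minus strand: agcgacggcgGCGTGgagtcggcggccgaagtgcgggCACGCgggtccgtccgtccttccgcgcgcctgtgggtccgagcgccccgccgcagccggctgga
SCD promoter, chr10:100347021-100347121, plus strand: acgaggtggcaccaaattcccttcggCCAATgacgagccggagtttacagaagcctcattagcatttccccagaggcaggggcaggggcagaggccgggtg
CPT1A first intron, chr11:68839370-68839470, minus strand: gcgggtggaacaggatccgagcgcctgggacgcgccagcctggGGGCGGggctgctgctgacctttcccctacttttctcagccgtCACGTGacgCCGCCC
PLIN2 upstream peak, chr9:19161813-19161913, minus strand: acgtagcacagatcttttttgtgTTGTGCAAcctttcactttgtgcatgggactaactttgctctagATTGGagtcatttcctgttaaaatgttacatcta

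The fold of a peak is the fold enrichment at its summit as the peak caller gave it, the depth of coverage at the summit plus 1 divided by a genome-wide background of 0.941 plus 1. The depth, called the pileup, was a whole number in every peak and ran from 9 to 300, with a median of 20. Ranges in parentheses after a fold are exact Poisson 95% intervals of the pileup, which cover counting error only. The median fold was 10.8 over all peaks and 11.9 over the 74 peaks near the lipid genes. A 95% interval by order statistics ran from 9.79 to 16.5. It treats neighbouring peaks of 1 library as independent, which they are not, so no conclusion was drawn from it. Within the 74, the fold ran from 5.15 to 87.1, and 21 peaks had a pileup under 15, where the interval of the fold spans a wide range.

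A gene was given a promoter peak when a summit lay between 1 kb upstream and 100 bp downstream of a transcription start site (TSS), whichever of its transcripts that belonged to. Of the 10 genes, 8 had a promoter peak (80.0%, exact binomial 95% interval 44.4 to 97.5), against 61.4% of all protein-coding genes. All 8 had it at the canonical TSS, which 52.2% of protein-coding genes did. The genes with none were PLIN1 and PLIN4. With only peaks of score above 100, PLIN5 and CPT1A also had none, leaving 6 of 10 genes (60.0%, 26.2 to 87.8) against 57.5% of protein-coding genes, and above 200 the same 6 against 52.0%. The median promoter fold of the 8 was 22.9, against 25.8 over all genes with a promoter peak, and 2 of the 8 lay above that median. The 10 genes spanned nearly the whole range of promoter accessibility in this library, from above 98.8% of the promoter peaks of protein-coding genes to no peak.

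The promoters fell into an order in which only some neighbours were separated. HILPDA led with a fold of 87.1 (74.5 to 101). It was followed by FASN with 29.9 (22.8 to 38.6), SCD with 25.2 (18.8 to 33.3), PLIN3 with 23.7 (17.4 to 31.5) and DGAT2 with 22.2 (16.1 to 29.8). PLIN2 with 13.4 (8.85 to 19.5), PLIN5 with 6.70 (3.71 to 11.3) and CPT1A with 6.18 (3.34 to 10.7) came last. The pileup at HILPDA was 2.95 times that at FASN (exact interval of the ratio 2.17 to 4.05). FASN, SCD, PLIN3 and DGAT2 could not be told apart from their neighbours, with ratios of 1.19 (0.795 to 1.78), 1.07 (0.695 to 1.64) and 1.07 (0.688 to 1.67). DGAT2 exceeded PLIN2 by a ratio of 1.68, with an interval from 1 to 2.88, and PLIN2 exceeded PLIN5 by 2.08 (1.01 to 4.55), so that both differences were at the edge of counting error. PLIN5 and CPT1A did not differ beyond counting error, with a ratio of 1.09 (0.441 to 2.73). These folds and ratios were not adjusted for the chromosome. The median promoter peak of coding genes ranged from 19.6 on chromosome 19 to 38.1 on chromosome 7 among the chromosomes of these genes. Divided by the median of its chromosome, HILPDA was at 2.28, FASN at 1.45, PLIN3 at 1.21 and SCD at 0.852. SCD and PLIN3 thus changed places, and the rest of the order stayed.

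**Figure D1:**
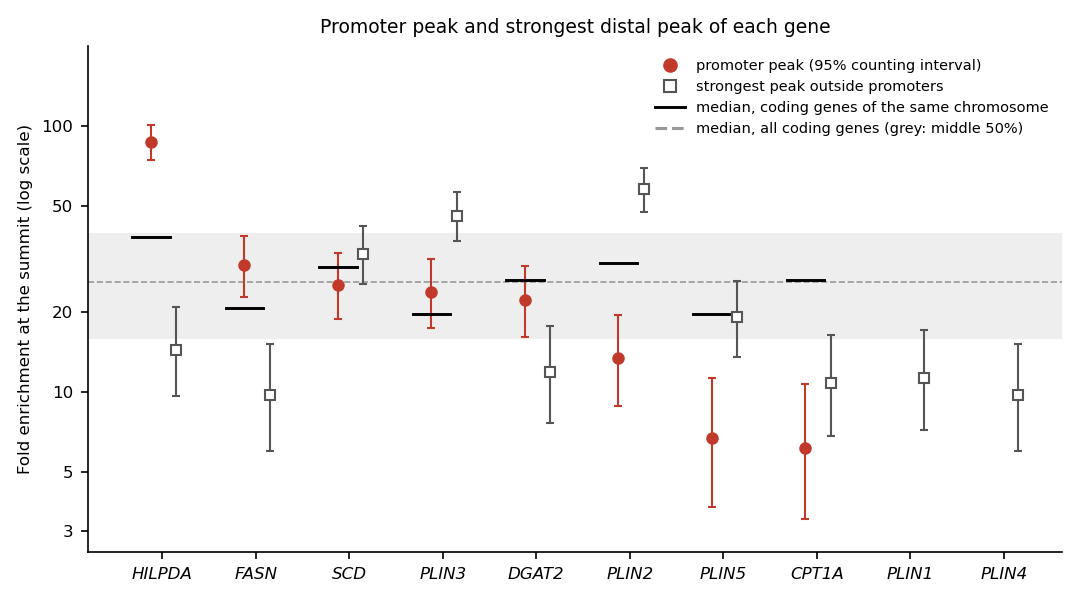
Fold enrichment (log scale) of the promoter peak (red) and of the strongest peak outside all promoters (open squares) for each of the 10 genes, with 95% counting intervals, the median over promoter peaks of coding genes of the same chromosome (black bars) and the median and middle 50% of all protein-coding promoter peaks (dashed line and grey band). HILPDA stands above the others at 87.1, PLIN2 at 13.4 is below its upstream peak at 57.7, and PLIN1 and PLIN4 have no promoter peak.

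HILPDA, which binds and inhibits the triglyceride lipase ATGL and so slows the breakdown of droplets, had the most accessible promoter of the 10. The gene is at chr7:128455849-128458418 on the plus strand. Its promoter peak spanned chr7:128455096-128456613, with the summit at -130 bp from the canonical TSS (negative positions are upstream in the direction of the gene) and a pileup of 168. This fold was higher than that of 99.7% of all peaks and 98.8% of the promoter peaks of protein-coding genes. Promoter peaks of coding genes on chromosome 7 had a median fold of 38.1, higher than the 25.8 of the genome, and HILPDA exceeded 90.8% of the 598 there. Within 5 Mb and outside the window, promoter peaks of all genes, noncoding ones included, had a median of 21.9. The median of such peaks over the genome was 19.6. The same peak lay in the promoters of the noncoding genes HILPDA-AS1 and ENSG00000273184, and accessibility cannot be divided among them. The summit sequence printed above, with 75.2% G and C, held several copies of the core of the hypoxia response element.

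Around HILPDA, 9 peaks lay within the window. A weaker peak sat just upstream at -1267 bp, with a fold of 11.3 (7.21 to 17.1). Past the end of the gene, inside intron 1 of ENSG00000273184, peaks lay at 3670 bp with a fold of 14.4 (9.68 to 20.8) and at 5623 bp with a fold of 7.73 (4.46 to 12.6). The first of these held another response element core and a CCAAT box at its summit. The strongest HILPDA peak outside promoters had 0.161 times the pileup of the promoter (0.103 to 0.242), a difference beyond counting error. The remaining strong peaks belonged to the promoters of IMPDH1, with a fold of 50.0, and METTL2B, with 37.1.

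PLIN2, the perilipin that coats droplets in most non-fat cells and a common marker of ccRCC, showed the opposite layout. The gene record spans chr9:19108375-19149290 on the minus strand. Its canonical promoter peak, at chr9:19126740-19127844 with the summit at -56 bp, had a fold of 13.4, and 18.5% of the promoter peaks of protein-coding genes lay below it. The median of such peaks on chromosome 9 was 30.4. Promoter peaks of all genes within 5 Mb and outside the window had a lower median of 16.0, closer to the PLIN2 fold. Another PLIN2 promoter peak, at 8466 bp downstream beside the TSS of a shorter transcript, had a fold of 12.4 (8.03 to 18.3).

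The strongest PLIN2 peak was intergenic, at chr9:19161326-19162561, with the summit at -34371 bp and a fold of 57.7 (47.6 to 69.4). It was higher than 97.5% of all peaks, and its pileup of 111 was 4.44 times that of the PLIN2 promoter (2.86 to 7.15). A companion peak at -35622 bp had a fold of 29.4 (22.3 to 38.0). The nearest coding TSS to both was that of PLIN2, 12573 bp away for the stronger peak, since some PLIN2 transcripts start far upstream of the canonical one. Further intergenic peaks followed at -56888 bp with a fold of 21.6, at -26923 bp with 16.0 and at -46910 bp with 15.5. In the gene body, 7 peaks lay outside promoters, led by folds of 19.6 near the end of the gene record and 18.6 in exon 8. In all, PLIN2 had 17 peaks, the most of the 10 genes, and a PLIN2 TSS was the nearest coding start for 15 of them. Which gene these sites act on was not measured.

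PLIN3, which moves between the cytosol and newly formed droplets, had a promoter peak of middle rank. The gene is at chr19:4838341-4867694 on the minus strand, and its promoter peak at chr19:4867477-4868224 had its summit at -63 bp. Its fold of 23.7 exceeded 43.9% of the promoter peaks of all protein-coding genes and 62.3% of the 895 on chromosome 19, where the median was 19.6. Its pileup was 1.80 times that of PLIN2 (1.08 to 3.06) and 3.75 times that of PLIN5 (1.95 to 7.79). Among the perilipins PLIN3 thus had the highest promoter fold, but the difference from PLIN2 was near the edge of counting error. With a promoter of 2.5 kb on both sides the PLIN2 fold was 18.6, and that ratio was not recomputed. Like PLIN2, PLIN3 lay among many peaks, 15 in its window. The strongest outside promoters were in UHRF1 intron 2 with a fold of 45.9 (36.9 to 56.4), in PLIN3 intron 5 with 36.6 (28.6 to 46.1) and at -2637 bp with 31.9 (24.6 to 40.9). The last held an AP-1 site at its summit. The nearest coding start was that of PLIN3 for 4 of the 15, and the others lay closer to FEM1A, TICAM1, UHRF1 or ARRDC5.

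PLIN5, PLIN4 and PLIN1 were the least accessible perilipins. PLIN5, which ties droplets to mitochondria, is at chr19:4522531-4535224 and had a weak promoter peak at -52 bp. Its fold of 6.70 was above only 4.58% of the promoter peaks of coding genes on its chromosome, where genes without a peak are not ranked. No summit lay inside the PLIN5 gene record. PLIN4 is next to it at chr19:4502192-4518486, and the peak closest to its start was 3206 bp away, with a fold of 5.67 (2.99 to 9.99). The PLIN4 gene held a single peak, in intron 6, with a fold of 8.24 (4.84 to 13.3), and its summit carried an E-box and an AP-1 site. The windows of these neighbours overlap, so 4 peaks were counted in both. Their surroundings were not closed as a whole, as the promoter of HDGFL2 in the PLIN4 window had a fold of 74.2 (62.6 to 87.3) and UBXN6 one of 16.5.

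PLIN1, at chr15:89664367-89679427, had no summit inside the gene. The nearest summit to any of its start sites was 4474 bp away, and the peak nearest to the canonical TSS, at -11413 bp with a fold of 8.76 (5.23 to 13.9), was the promoter of PEX11A and WDR93. The strongest of the 4 peaks in its window was the KIF7 promoter with a fold of 33.5 (25.9 to 42.6), and every peak in the window had another gene's start as its nearest coding TSS. The lowest pileup in the deposited list was 9, a fold of 5.15, so accessibility below that level at PLIN1 or PLIN4 was not detectable here, and absence of a peak does not show a closed promoter. None of the windows of the 10 genes held sequence with an alternative copy in the reference, where reads of low mapping quality would have been lost.

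**Figure D2:**
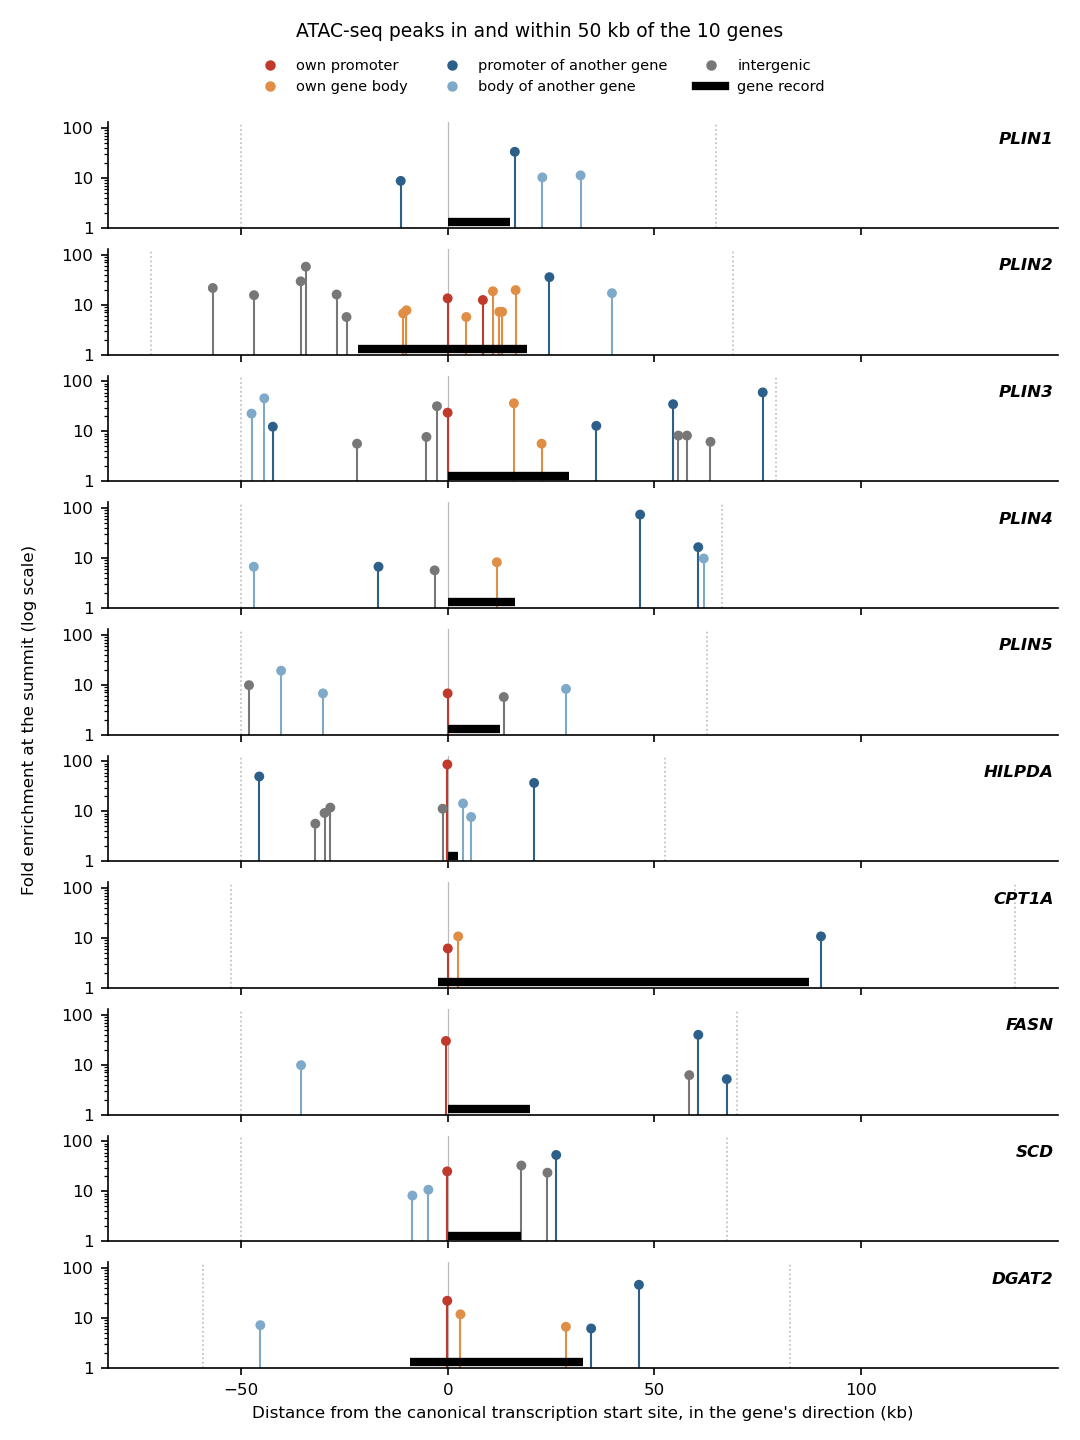
Fold enrichment (log scale) of each peak against the distance of its summit from the canonical TSS in kb, in the direction of the gene, for each of the 10 genes, with the gene record as a black bar, the window limits as dotted lines and the class of each peak by colour. PLIN2 and PLIN3 have 17 and 15 peaks, whereas CPT1A has 3, and the peaks of PLIN1 lie outside the gene.

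The genes of lipid synthesis had promoters of middle rank. FASN, the synthase that builds palmitate from malonyl-CoA, is at chr17:82078338-82098294, and its peak at chr17:82097008-82099102 was broad, 2095 bp, with the summit at -472 bp. The fold of 29.9 was 1.45 times the median of 20.6 over the promoter peaks of coding genes on chromosome 17. The next peak in the window was at -35536 bp in CCDC57 intron 16, with a fold of 9.79 (6.01 to 15.2). No summit lay inside the FASN gene record. DGAT2, which adds the last fatty acid to make triglyceride, is at chr11:75759512-75801535. Its peak at -147 bp had a fold of 22.2, was shared with the divergent noncoding gene DGAT2-DT and ranked above 40.1% of the promoter peaks of coding genes on chromosome 11. The median of promoter peaks of all genes within 5 Mb and outside the window was lower, 17.8. Inside DGAT2, peaks lay in intron 1 with a fold of 11.9 (7.62 to 17.7) and in intron 6 with 6.70 (3.71 to 11.3).

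SCD, the desaturase that makes oleate, the fatty acid most used in stored triglyceride, is at chr10:100347233-100364826. Its promoter peak, at chr10:100345448-100347851, was the widest of the 10 genes with 2404 bp, and its summit lay at -162 bp beside a CCAAT box. The fold of 25.2 exceeded 39.7% of the 484 promoter peaks of coding genes on chromosome 10, whose median was 29.6. It lay above the median of 22.7 over promoter peaks of all genes within 5 Mb and outside the window. Downstream of SCD, 3 peaks formed a series. The first, at 17781 bp and just past the end of the gene, had a fold of 33.0 (25.5 to 42.0). The next, at 24100 bp, had 23.7 (17.4 to 31.5), and the last, at 26217 bp, had 53.6 (43.8 to 64.9) and was the promoter of the noncoding gene OLMALINC. The pileup of the first was 1.31 times that of the SCD promoter (0.887 to 1.95), a difference within counting error. Inside the SCD gene itself there was no summit.

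CPT1A, the carnitine palmitoyltransferase that lets long fatty acids into mitochondria for oxidation, had, with PLIN5, the lowest promoter fold of the 8. It is the longest of the 10, at chr11:68754620-68844410, yet its window held 3 peaks, or 1.58 per 100 kb. The promoter peak at chr11:68841737-68842116 had its summit at -19 bp and a pileup of 11. Its fold of 6.18 was above 2.21% of the 724 promoter peaks of coding genes on chromosome 11. A stronger peak of fold 10.8 (6.81 to 16.4) lay in intron 1 at 2496 bp, close to the start of another CPT1A transcript but outside the promoter as defined here. The ratio of their pileups was 1.82 (0.830 to 4.20), within counting error. With that intron peak taken as the CPT1A promoter, as happens when the promoter is widened to 1 kb on both sides, its fold still lay under the chromosome 11 median of 26.3. The FASN promoter had 5.18 times the pileup of the CPT1A promoter (2.69 to 11.0), and the HILPDA promoter 15.3 times (8.32 to 31.2).

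Peaks were spread unevenly over the windows. All 10 genes had at least 1 peak in the window, as did 92.2% of protein-coding genes. The density was 12.1 peaks per 100 kb at PLIN2, 11.6 at PLIN3 and 8.77 at HILPDA, higher than at 94.8%, 93.6% and 83.8% of protein-coding genes. The other 7 genes had from 1.58 to 6.02 peaks per 100 kb. The median of the 10 was 5.21, against 4.51 (middle 50% from 2.32 to 7.36) over all protein-coding genes, and 6 of the 10 were at or above that value. Density depends on gene crowding as well as on the gene named, and 17 of the 74 peaks were promoters of other genes, with a median fold of 35.0. In 6 of the 10 windows such a neighbour held the strongest peak, and near CPT1A the TESMIN promoter tied with the intron peak at 10.8. Another 9 were promoters of the 10 genes themselves (median fold 22.2), 13 lay in their gene bodies (7.73), 14 in the bodies of other genes (10.6) and 21 between genes (9.79).

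**Figure D3:**
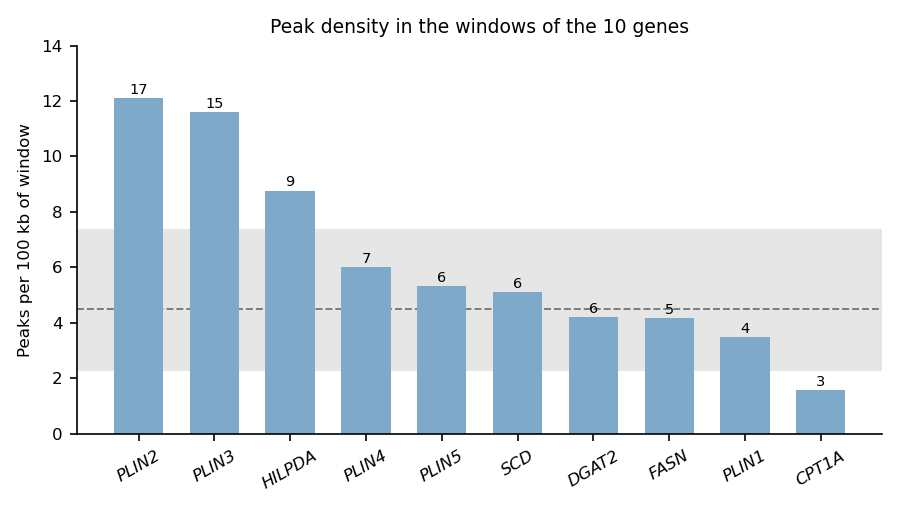
Peaks per 100 kb of window for the 10 genes, with the number of peaks above each bar, the median of all protein-coding genes as a dashed line at 4.51 and their middle 50% as a grey band. PLIN2, PLIN3 and HILPDA lie above the band and CPT1A below it.

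Outside promoters, 48 of the 74 peaks remained (64.9%), with a median fold of 9.79 against 9.28 for all such peaks in the library. The balance between promoter and distal accessibility differed among the genes. The strongest distal peak exceeded the promoter beyond counting error at PLIN2, PLIN3 and PLIN5, with pileup ratios of 4.44, 1.96 (1.35 to 2.87) and 3.00 (1.53 to 6.33). It was lower beyond counting error at HILPDA, FASN with a ratio of 0.316 (0.175 to 0.544) and DGAT2 with 0.524 (0.298 to 0.898). At SCD and CPT1A the interval of the ratio included 1. At PLIN3 and PLIN5 the distal peak in question lay in the record of another gene, UHRF1 and SEMA6B. Except at CPT1A, which had 1 distal peak, the distal peak was the highest of several, which raises the ratio. The promoter peak was also the highest where a gene had more than 1, as at PLIN2 with 2.

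Both strands of the sequence up to 50 bp from a summit were scanned for short motifs. These were the core of the hypoxia response element (HRE, ACGTG or GCGTG), the E-box CACGTG, the AP-1 site (TGACTCA or TGAGTCA), a sterol regulatory element for SREBP (TCACNCCAC), a PPAR direct repeat (AGGTCANAGGTCA), the CCAAT box of NF-Y, a C/EBP site (TTGCNNAA) and the GGGCGG box of SP and KLF factors. The E-box contains ACGTG, so each E-box match is also counted as an HRE match. A match is a description of sequence and does not show that a factor was bound.

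The HRE core was present at 22 of the 74 summits (29.7%, 19.7 to 41.5), against 16.0% of all summits. Promoter summits in the windows, which include those of neighbouring genes, had it in 13 of 26 (50.0%), against 26.6% of all promoter summits, and distal summits in 9 of 48 (18.8%), against 13.4%. Of the 8 promoter peaks of the lipid genes, those of HILPDA, FASN, PLIN3, DGAT2, PLIN2 and PLIN5 held the core and those of SCD and CPT1A did not. These promoters were rich in G and C, from 60.4% at SCD to 82.2% at CPT1A, and both forms of the core hold the CpG pair. The part of base composition in the share was not tested.

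The other motifs gave smaller counts. The E-box was at 6 summits (8.11%, against 2.04% of all), among them the PLIN2 promoter and the CPT1A intron. The GGGCGG box was at 13 (17.6% against 8.45%), of which 11 were promoter summits (42.3% against 29.1%). The AP-1 site was at 9 (12.2% against 15.7%), all distal, which was 18.8% of distal summits against 18.0% in the library. NF-Y was at 14 (18.9% against 12.8%). C/EBP was at 2 (2.70% against 4.43%), both in the upstream pair of PLIN2 peaks. SREBP was at 1 (1.35% against 0.612%), in KIF7 intron 6 near PLIN1. It was not at the promoter summits of FASN or SCD, which are well-known SREBP targets. The FASN summit lay at -472 bp, so the sequence at its canonical TSS was not scanned. The PPAR repeat was at 0 of 74 summits, which allows a share of up to 4.86%, and was found at 0.00677% of all summits, so the exact repeat is too rare to inform here.

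**Figure D4:**
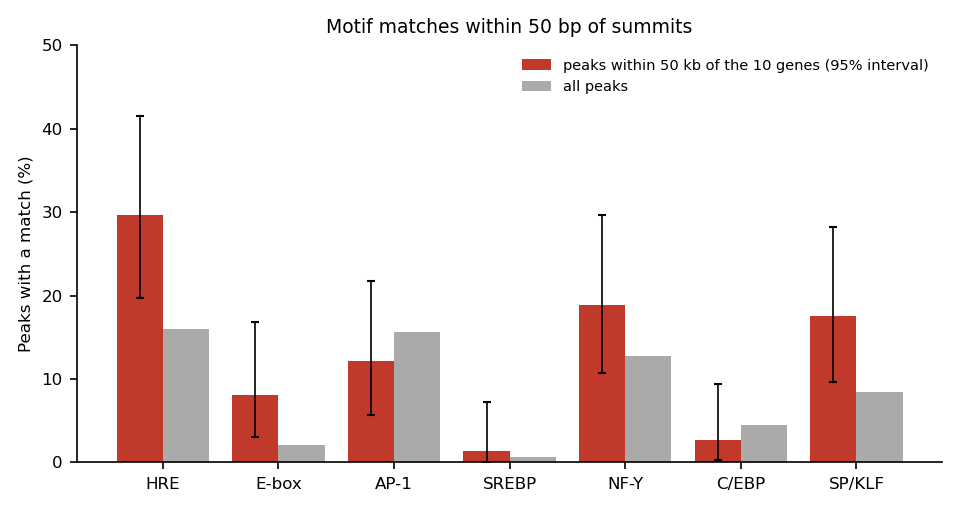
Share of summits with a motif match within 50 bp, for the 74 peaks near the lipid genes (red, with exact binomial 95% intervals) and for all peaks (grey). The HRE core is at 29.7% against 16.0%, and AP-1 at 12.2% against 15.7%.

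The RefSeq promoter table (GRCh38.p14, 250 bases before to 50 after a gene's start) matched 7 of the 10 genes, all but HILPDA, FASN and DGAT2. Matches to the HRE core were found in the promoters of PLIN2, PLIN3, PLIN5, CPT1A and SCD and not in those of PLIN1 and PLIN4, against 48.4% of 27305 promoters. PLIN2 had 5 of them, PLIN3 had 3 and PLIN5 had 2. The CCAAT box was in those of PLIN3, PLIN4, PLIN5 and SCD, against 35.7% of promoters. PLIN1, which had no promoter peak, matched only the C/EBP site, present in 10.6%. The RefSeq start of CPT1A is at another TSS than the canonical one used above, and its promoter there held no summit.

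The wider lipid machinery was examined in 59 further genes in 7 lists. A promoter peak was present at 46 (78.0%, 65.3 to 87.7), against 61.4% of protein-coding genes, and their median fold of 24.4 was near the 25.8 of all promoter peaks. At the canonical TSS the count was 35 (59.3%, 45.7 to 71.9), against 52.2% of protein-coding genes. Of the 7 other droplet proteins, 4 had a promoter peak (57.1%, 18.4 to 90.1, against 61.4% of protein-coding genes). Their folds ran from 11.3 at CIDEB to 26.3 at G0S2, like HILPDA an inhibitor of ATGL. The genes CIDEA and CIDEC, which fuse droplets in fat cells, had none, and neither had FITM1, the muscle form of the protein for which FITM2 is the widely made form.

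Triglyceride and sterol ester synthesis had a peak at 7 of 10 genes (70.0%, 34.8 to 93.3, against 61.4% of protein-coding genes). Their median fold of 42.3 was the highest list median. DGAT1, which catalyses the same step as DGAT2, had 74.7 (63.1 to 87.9), and the lowest was AGPAT2 with 28.3 (21.4 to 36.8). MOGAT1 and MOGAT2 of the intestinal and hepatic monoacylglycerol route and SOAT2 of intestine and liver had none, although a peak in MOGAT2 intron 2 with a fold of 7.21 lay within the DGAT2 window. All 5 genes of lipolysis had a promoter peak (100%, 47.8 to 100, against 61.4% of protein-coding genes). Folds ran from 7.21 (4.08 to 12.0) at LIPE, the hormone-sensitive lipase, to 60.3 (49.9 to 72.2) at LIPA, the lysosomal acid lipase. PNPLA2, which encodes the lipase ATGL that HILPDA inhibits, had 24.7. The peaks of PNPLA2, LIPE and MGLL were at promoters of other transcripts, 2400, 3826 and -229694 bp from the canonical TSS.

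Of 7 genes of fatty acid synthesis and desaturation 5 had a promoter peak (71.4%, 29.0 to 96.3, against 61.4% of protein-coding genes). Folds ran from 8.76 (5.23 to 13.9) at ACACB to 31.4 (24.1 to 40.3) at ACLY, which makes cytosolic acetyl-CoA. The peaks of ACACB and ACLY were at promoters of other transcripts, 38120 and -11576 bp from the canonical TSS. SCD5 had none. ACACA, the acetyl-CoA carboxylase upstream of FASN, also had none, but 100% of the gene lies in sequence with an alternative copy in the reference and its window held 0 peaks, so its state could not be read. Without ACACA the share of lipid genes with a promoter peak was 79.3%. In fatty acid oxidation 8 of 9 genes had a peak (88.9%, 51.8 to 99.7, against 61.4% of protein-coding genes). The lowest was CPT1B, the muscle form of CPT1A, with 5.15 (2.64 to 9.32), at another transcript's promoter 2181 bp from the canonical TSS. The highest was ACADM, a dehydrogenase of medium chains, with 43.3 (34.6 to 53.5). CPT1C, the brain form, had none. The median of this list was 27.3, against 6.18 at CPT1A.

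Uptake and activation of fatty acids had promoter peaks at 5 of 9 genes (55.6%, 21.2 to 86.3, against 61.4% of protein-coding genes), from the acyl-CoA synthetases ACSL5 with 8.24 (4.84 to 13.3) to ACSL3, which works on nascent droplets, with 41.2 (32.7 to 51.2). The ACSL5 peak was at another transcript's promoter, 1294 bp from the canonical TSS. The genes with none were CD36, VLDLR, FABP4 and FABP5, of which FABP5 had a summit 629 bp and VLDLR 1243 bp from a start site. All 12 regulators had a promoter peak (100%, 73.5 to 100, against 61.4% of protein-coding genes). The lowest was MLXIPL, the carbohydrate-responsive factor ChREBP, with 7.73 (4.46 to 12.6). The highest was INSIG1, which holds SREBP in the endoplasmic reticulum, with 76.3 (64.5 to 89.5). PPARG, the regulator of fat cell genes, had 12.9, and PPARA, which drives oxidation genes such as CPT1A, had 11.9 (7.62 to 17.7). The peaks of MLXIPL, PPARG, SREBF1 and NR1H3 were at promoters of other transcripts, 17485, 19618, 17135 and -9021 bp from the canonical TSS.

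**Figure D5:**
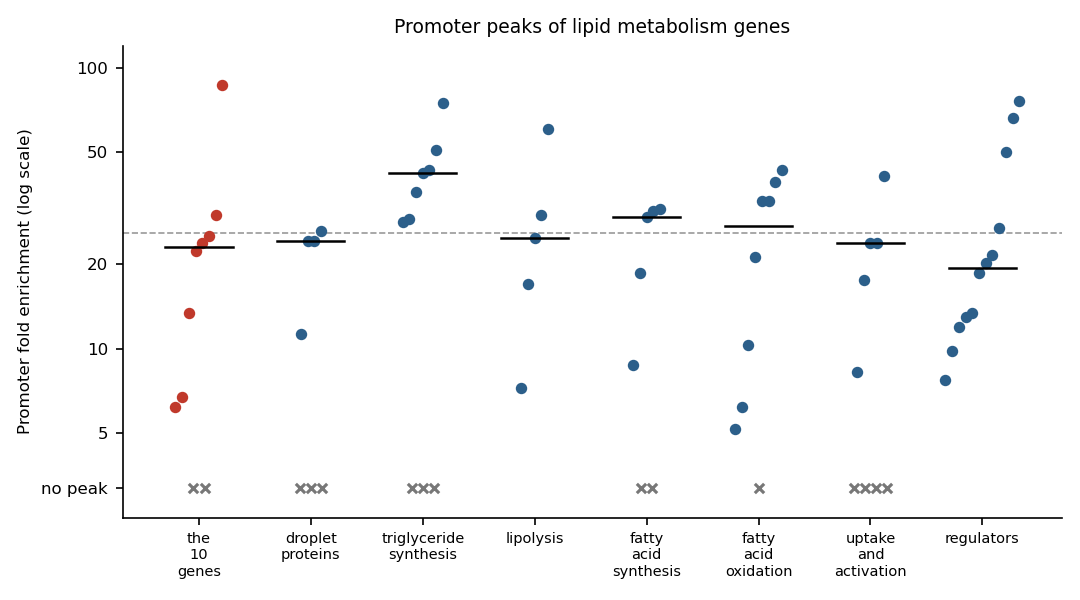
Promoter fold enrichment (log scale) of the 10 genes (red) and of 59 other lipid genes in 7 lists (blue), with the median of the peaks in each list as a bar, genes without a promoter peak as crosses and the median of all protein-coding promoter peaks, 25.8, as a dashed line. The ranges of the lists overlap, and the 10 genes run from 6.18 to 87.1.

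The labelled cell type was checked against its markers. Promoter peaks were present at 5 of 7 renal carcinoma genes (71.4%, 29.0 to 96.3, against 61.4% of protein-coding genes), with folds of 31.9 at PAX8, 22.7 at PAX2, 47.9 at VIM, 43.3 at KRT8 and 8.24 at KRT18, and were absent at CA9 and CDH6. The peaks of VIM and KRT8 were at promoters of other transcripts, 375 and -44831 bp from the canonical TSS. Of 8 markers of fat cells, hepatocytes, leukocytes and endothelium 0 had a promoter peak, which allows a share of up to 36.9%, and PTPRC among them lies for 72.9% of its length in sequence with an alternative copy. The fat cell genes ADIPOQ and LEP were thus without a promoter peak, as was PLIN1.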

How the data were processed

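ATAC-seq of 786-O cells with an empty vector was analysed from the deposited peak list of 1 library. Per the study's methods and the submitters' processing notes, the authors used fastp for trimming and Bowtie2 2.3.4.3 for alignment to hg38, removed mitochondrial, duplicate and low mapping quality reads and called peaks with MACS2 2.2.6 against a genome-wide background. A shift to the Tn5 cutting site is not stated, so summits may lie some bases from insertions. The deposited fold is the enrichment ratio at the summit, the deposited −log10 p-value and −log10 q-value follow from the same pileup, and the score deposited with each peak is that −log10 q-value times 10, rounded down. The lowest score was 52 and peak numbers ran to 111260 for 88676 peaks, so the list had been filtered. Peaks are named as wild type in the list, and the label, empty vector, was used. The total read depth is unknown, so that precision was taken from the pileup at each summit, recovered from the fold and whole to within 1.83e-05. A summit is the highest point of a peak, so its pileup is biased upward.

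Genes and transcripts came from GENCODE release 44. Promoters, windows and motifs were as given with the results, and a distal peak had its summit in no promoter of any gene. Intervals were exact (Poisson for pileups, conditional binomial for ratios, Clopper-Pearson for shares) at the 95% level. Those for pileups and ratios cover counting error only. Those for shares treat genes or peaks as independent draws, although the gene lists were chosen. The 261 alternative sequences were aligned to their chromosomes (minimap2 2.31, length 10 kb or more, divergence 5% or less) to find duplicated sequence. Python 3.11.15, numpy 2.4.6, pandas 2.3.3, scipy 1.17.1, pysam 0.24.0 and matplotlib 3.10.9 were used, and the functions were tested on simulated data. The genes and lists were chosen with earlier results of these data known. The rule for names took all 10 genes, in each further list the genes of highest and lowest promoter fold and every gene without a promoter peak, and for each of the 10 the promoter peak and 2 strongest distal peaks. BSCL2 and other list members are given by counts. PNPLA2, MGLL, PPARG, SREBF1, NR1H3, FITM2, PPARA and the peaks of neighbouring genes were named after their values were seen. Genes with a like pattern could not be named from 1 sample. Alternatives were score minimums of 100 and 200, other windows, promoter widths and motif widths.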

Additional observations from a re-analysis of the deposited data

How the results depend on the processing

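No paired analysis was possible because a single library was used. With only peaks of score above 100, the median fold of the peaks near the lipid genes was 16.7 (15.5 over all peaks), and above 200 it was 24.5 (21.6), with 38 peaks left. At both minimums PLIN5 and CPT1A lost their promoter peak, leaving 6 of 10 genes (60.0%), against 57.5% and 52.0% of protein-coding genes. The number of peaks was 41 with a 10 kb window, 117 with a 100 kb window and 37 when a lipid gene's TSS had to be the nearest coding start. The share of summits with an SREBP site was 0% above score 200. Within 100 bp of the summit the HRE core was at 48.6% (27.9% of all peaks) and the GGGCGG box at 28.4% (14.1%). The CPT1A promoter fold became 10.8 with a promoter of 1 kb or 2.5 kb on both sides or with overlap of the peak interval, above PLIN5 at 6.70. Under the alternatives, 39 main and 49 single-gene values stayed within the set limits. The limits were wide, since the count of 6 of 10 genes with a promoter peak lay within them. So did 56 peaks near the lipid genes above score 100, against 74. The HRE share of 39.5% above score 200 (19.2% of all peaks), against 29.7%, also did. The PLIN2 promoter fold stayed within them too, though it rose from 13.4 to 18.6 with a promoter of 2.5 kb on both sides. That is nearer to DGAT2 at 22.2 and PLIN3 at 23.7, and pileup ratios were not recomputed at that width. With 1 library, no value has a replicate check, and folds from pileups under 15 are the least certain.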
